A study of Bos taurus with 16 samples.

Results

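The subject is a set of 148 annotated loci that were abundant in the subcutaneous white adipose tissue of dairy calves and at least 16-fold lower in their skeletal muscle. They were selected on measured values. A locus was a member if its identifier was an Ensembl bovine gene, its mean over the 8 adipose libraries was at least 100 counts per 1000000 (CPM), and that mean was at least 16 times its mean over the 8 muscle libraries. The 148 members were drawn from 42862 merged loci, of which 26157 carried an Ensembl identifier and 1932 of those reached 100 CPM in adipose tissue. Because this contrast chose the members, their adipose and muscle levels are given as a description with no test. The treatment of the calves was not used in the choice.

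The libraries came from 8 Holstein bull calves that were about 21 d old when treatment began and received 8 L of milk replacer each day. Calves 1 to 4 received saline in the milk replacer and are called CON, and calves 5 to 8 received 5-hydroxytryptophan and are called 5-HTP. Treatment lasted 10 d, and tissue was taken the morning after its last day. Each calf gave 1 adipose library, taken as bulk tissue beneath the skin by the tail head, and 1 library of the gluteus medius muscle. In bulk tissue, fewer cells of a type and less RNA per cell cannot be told apart.

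White adipose tissue stores triacylglycerol in adipocytes, which take up fatty acids, synthesise them and release them again, and which secrete hormones. The tissue also holds fibroblasts, vessels and immune cells, and skeletal muscle is itself crossed by fat, connective tissue and vessels. 5-HTP is the immediate precursor of serotonin, a signalling amine. None of the 148 identifiers was paired with a gene symbol in the sources used, so no member can be placed in a pathway or cell type here. Members are therefore called by their adipose rank, the position by mean adipose CPM from 1 for the highest, and 4 are also given by identifier.

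Depth ranged from 15058963 to 22156739 counts in adipose libraries and from 18017558 to 25077800 in muscle libraries, so that a floor of 3 counts was 0.12 to 0.199 CPM. The labelled tissues could be checked on the few features with a symbol. IGFN1, an immunoglobulin-like protein of striated muscle, was at 2118 ± 1037 CPM in muscle and 0.148 ± 0.215 CPM in adipose tissue (SD, n = 8). A locus named TTN, for the sarcomere protein titin, was at 34.2 ± 19.2 against 0.105 ± 0.198 CPM. CFD, the adipocyte-secreted complement factor D, was at 38.4 ± 20.5 CPM in adipose tissue and 3.68 ± 2.07 CPM in muscle, and was not a member. Of the 19 white adipocyte markers 1 had a paired identifier, and of the 9 muscle fibre markers 1 did. IGFN1 was on neither list. The adipose library of calf 2 and the muscle library of calf 1 stood apart, with median correlations of 0.910 and 0.945 with the other libraries of their tissue, where all others lay between 0.953 and 0.981. Median spread and the counts of members at unadjusted P within a tissue are given with and without these libraries.

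The members made up a nearly constant share of the adipose libraries. In CON calves 1 to 4 they took 8.20, 8.14, 8.95 and 8.72% of adipose counts, and in 5-HTP calves 5 to 8 they took 8.45, 9.14, 9.52 and 9.75%. The groups overlapped, at 8.50 ± 0.393% and 9.21 ± 0.569% (SD, n = 4). In muscle the same members took 0.197, 0.242, 0.188 and 0.231% in CON calves and 0.223, 0.195, 0.194 and 0.196% in 5-HTP calves. The muscle groups also overlapped, at 0.215 ± 0.0261% and 0.202 ± 0.0139%. For comparison, the 188 annotated loci chosen by the same thresholds in the opposite direction took 40.2 to 45.8% of muscle counts and 0.169 to 0.216% of adipose counts.

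**Figure D1:**
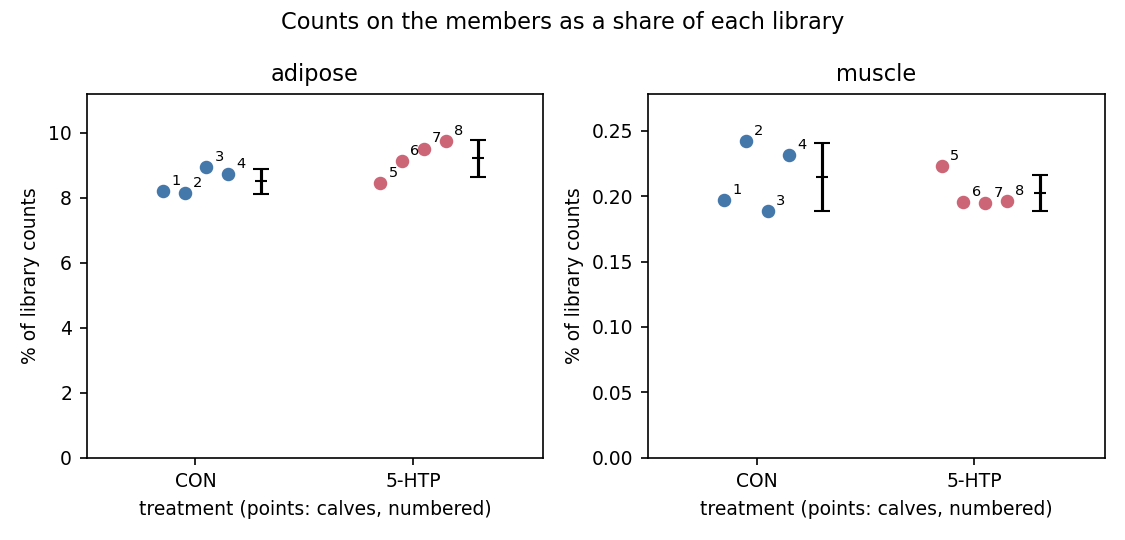
Share of each library's counts that fell on the 148 members, in percent, by treatment for adipose tissue and for muscle on separate axes from 0. Points are calves with their numbers and bars are the mean ± SD of 4 calves; adipose shares ran from 8.14 to 9.75% and muscle shares from 0.188 to 0.242%, with the treatment groups overlapping in both.

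Adipose levels spanned a wide range, with most members toward its lower end. Mean adipose CPM ran from 100.4 to 6015 with a median of 338. There were 48 members between 100 and 200 CPM, 55 between 200 and 500, 27 between 500 and 1000, and 18 at 1000 CPM or more. The 10 most abundant members held 37.2% of all member CPM. These values are not per transcript length, so the order of members is an order of counts and not of transcripts.

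The member at adipose rank 1 gave 6651, 7400, 4819 and 6572 CPM in adipose tissue with CON and 4982, 6100, 3968 and 7629 CPM in 5-HTP calves. Its mean in muscle was 0.379 CPM, with 17, 21, 11 and 2 counts in CON calves and 9, 2, 6 and 1 counts in 5-HTP calves. Adipose rank 2 gave 6314, 2704, 5930 and 6517 CPM in CON adipose tissue and 5410, 6754, 5577 and 5944 CPM with 5-HTP. Calf 2 was lowest for rank 2 and second highest for rank 1, so its adipose library was not low for every member. Rank 2 kept a low level in every muscle library, from 5.55 to 10.1 CPM.

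Ranks 3 and 4 had the highest residual muscle levels of all members. Rank 3 was at 3762 ± 857 CPM in adipose tissue and 211 ± 56.7 CPM in muscle (SD, n = 8). Rank 4 was at 3368 ± 564 and 203 ± 47.0 CPM. Their adipose to muscle ratios of 17.8 and 16.6 were just past the threshold, and no other member exceeded 100 CPM in muscle.

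The values nearest the thresholds show that the rule cut through a continuous range. Just inside the level threshold were members at 100.4 and 100.9 CPM, with ratios of 40.4 and 16.8. Just outside it were loci at 99.1 and 97.8 CPM, with ratios of 24.9 and 368. Just inside the ratio threshold were members at ratios of 16.08 (541.5 against 33.7 CPM) and 16.13 (219 against 13.6 CPM), and just outside were loci at 15.92 and 15.89. With a required ratio of 8 there were 280 members, and with 32 there were 81.

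**Figure D2:**
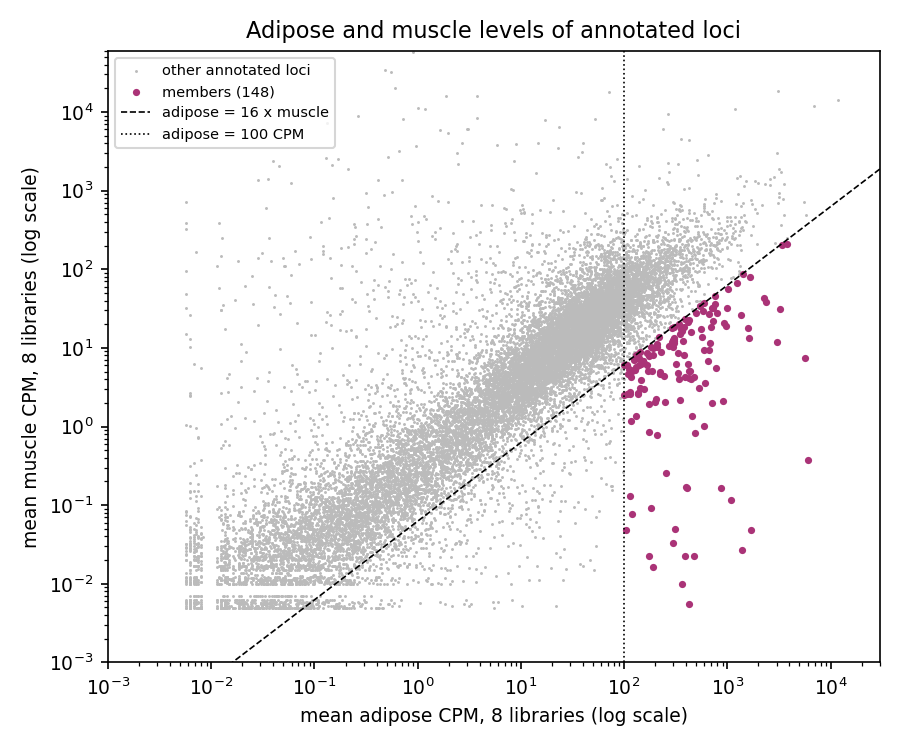
Mean muscle CPM against mean adipose CPM over 8 libraries each, both on log scales, for 18417 annotated loci with a count in both tissues (7740 at 0 in either tissue are not drawn). Members, in purple, lie right of 100 CPM in adipose tissue and below the line where adipose tissue is 16 times muscle, and form the edge of a continuous cloud except for a scattered group under 1 CPM in muscle.

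The word restricted, in the sense of absent from muscle, fitted few members, which are better called adipose-enriched. At least 1 count was present in every muscle library for 131 of the 148 members, 11 had 0 counts in 4 or more muscle libraries, and 0 members had 0 counts in all 8. Mean muscle CPM was under 0.1 for 13 members, 0.1 to 1 for 10, 1 to 10 for 70, 10 to 100 for 53 and above 100 for 2. The median was 6.34 CPM, with quartiles of 2.59 and 15.2. The 10 members highest in muscle held 41.6% of member CPM there.

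The adipose to muscle ratio was 16 to 32 for 67 members, 32 to 100 for 41, 100 to 1000 for 22 and at least 1000 for 18, with a median of 39.6. The highest ratios rest on very few muscle counts. The next 3 are ratios of summed counts over summed library totals, not of mean CPM, so that a counting interval can be given. Adipose rank 57 had 59911 counts over the adipose libraries and 1 count over the muscle libraries, a ratio of 73161 with a 95% exact counting interval from 13130 to 2889737. For rank 14 the counts were 202722 and 5, a ratio of 49511 with an interval from 21216 to 152485. For rank 1 they were 861465 and 69, a ratio of 15246 with an interval from 12047 to 19595. These intervals cover counting error only, and that of rank 57 overlapped those of both other members.

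Adipose tissue lay above muscle within each calf for all 148 members, but not always by 16-fold. The values of single calves are those that the rule averaged. The lowest adipose library lay above the highest muscle library for all 148 members, a description of what the rule selected. The ratio reached 16 within every calf for 83 members, and 64 members met both thresholds within every calf. The member with the fewest calves at the ratio threshold had 3. The ratio also depends on the scale, because muscle-enriched loci fill much of each muscle library. With TMM-scaled CPM over all 16 libraries, where the factors were 1.40 to 1.61 for adipose and 0.537 to 0.719 for muscle libraries, 63 loci passed the same thresholds and all 63 were among the 148.

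**Figure D3:**
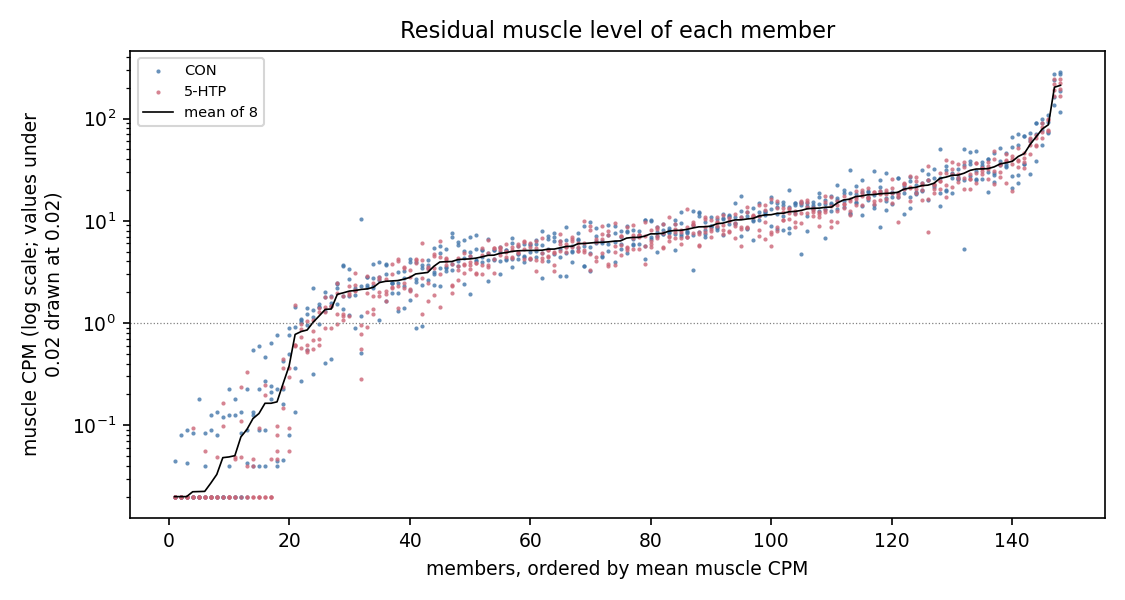
Muscle CPM on a log scale for each of the 148 members, ordered by mean muscle CPM, with a point per muscle library (blue CON, red 5-HTP), a line for the mean of 8 and values under 0.02 CPM drawn at 0.02. A steep lower tail of 23 members lies under 1 CPM, 70 members lie between 1 and 10 CPM, 53 between 10 and 100 CPM, and 2 lie above 100 CPM.

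The 23 members under 1 CPM in muscle formed the lower tail. They were not the weakest in adipose tissue, where their means ran from 103 to 6015 CPM with a median of 366. Their summed muscle counts were 97, 186, 106 and 99 in CON calves 1 to 4 and 113, 63, 64 and 51 in 5-HTP calves 5 to 8. The sums came to 5.24 ± 1.78 CPM with CON and 3.36 ± 0.774 CPM with 5-HTP (SD, n = 4), and calf 5, at 4.51 CPM, lay within the CON range of 3.95 to 7.87 CPM. Of the 23, 17 had more muscle counts in CON, 4 had fewer and 2 had equal counts. These are counts not scaled to depth, and CON muscle libraries were deeper, with a mean of 23280551 against 21171842 counts. Scaled to depth, the 2 with equal counts had a CON to 5-HTP ratio of 0.909. Rank 57 rested on 1 muscle count. Members share libraries, and the tally was not set against all loci, so it has no test. The highest muscle library was that of calf 1 for 7 of them.

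The members had a higher median spread between calves than other abundant loci. Over the 8 adipose libraries the coefficient of variation (CV, the SD as a percent of the mean CPM) had a median of 30.3% for members and 21.7% for the 1784 other annotated loci at 100 CPM or more. Within groups the medians were 33.5% for CON and 23.9% for 5-HTP, against 23.4 and 15.4% for the other loci, but without calf 2 the CON medians were 21.5 and 14.6% and no longer above those of 5-HTP. Without calf 2 the median over the remaining adipose libraries was 23.5% for members and 15.7% for the other loci. In muscle, the 125 members at 1 CPM or more had a median CV of 24.8%, against 14.96% for the other loci, and 22.1 against 11.8% without calf 1. These are descriptions over loci of the same libraries, which are not independent, and the muscle values of members rest on fewer counts.

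The range between calves was wide for some members. The highest adipose library exceeded the lowest by more than 2-fold in 105 members, more than 5-fold in 21 and more than 10-fold in 5. The most variable was adipose rank 135, with 195, 5.84, 87.0 and 32.3 CPM in CON calves and 6.73, 365, 111 and 149 CPM in 5-HTP calves (CV 101%). Rank 62 followed, with 593, 12.6, 218 and 516 CPM in CON and 124, 588, 166 and 929 CPM in 5-HTP calves (CV 79.2%). Both were lowest in calf 2, and in both the groups overlapped.

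Rank 129, the third by CV at 74.6%, went the other way in calf 2. Its adipose levels were 240, 299, 31.0 and 46.5 CPM in CON and 48.8, 147, 82.9 and 156 CPM in 5-HTP calves. The least variable member was rank 17, which stayed between 847 and 1237 CPM (CV 12.4%). Ranks 44 and 35 were next at 13.4 and 13.8%. Calf 2 was the lowest adipose library for 64 members (43.2%), close to the 38.7% of other abundant loci for which it was lowest. Calf 8 was the highest for 38 members (25.7%, against 16.3% of other loci).

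**Figure D4:**
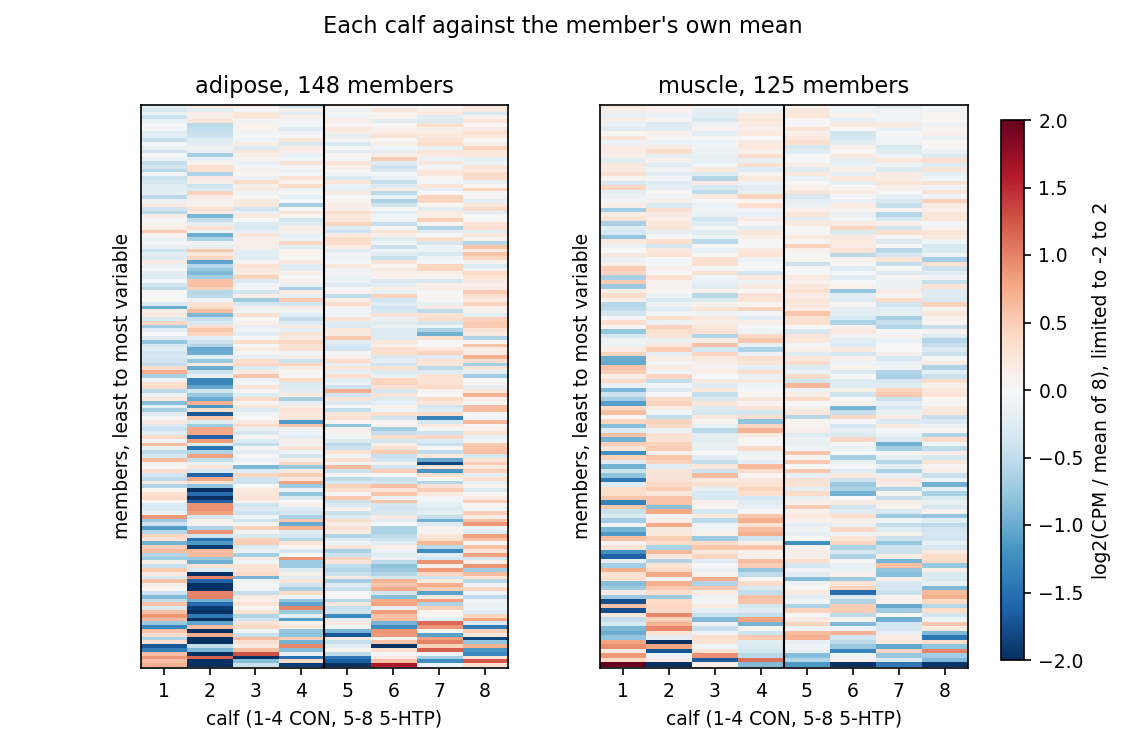
Each member's CPM in each calf as log2 of its ratio to the member's own mean over 8 libraries, limited to the range from -2 to 2, for 148 members in adipose tissue and the 125 at 1 CPM or more in muscle, ordered from least to most variable. The column of calf 2 in adipose tissue holds most of the strong negative values, where the calf was lowest for 64 members, and the column of calf 1 stands out in muscle.

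The question for treatment was whether 5-HTP changed these loci in either tissue. No member passed an adjusted p of 0.20 in adipose tissue by edgeR's likelihood ratio test, nor by edgeR's quasi-likelihood test or DESeq2, where 0.111% of all 18872 loci tested did by the likelihood ratio test. At unadjusted P ≤ 0.01 there was 1 member of 148 (0.676%, against 1.13% of all loci), and 1 to 5 when 1 calf was left out, with 5 without calf 3 (against 1.58% of loci) and 3 without calf 2 (against 1.03%). At unadjusted P ≤ 0.05 there were 8 (5.41%, against 4.42%), of which 7 were higher and 1 was lower with 5-HTP, and 10 without calf 2 (against 3.69%). The lowest adjusted p of a member was 0.279 (edgeR likelihood ratio test). The same member had an adjusted p of 0.209 by DESeq2 and 0.969 by edgeR's quasi-likelihood test. All 4 CON calves lay apart from all 4 5-HTP calves for 3 members, all higher with 5-HTP, against 2.43% of all loci in either direction.

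Fitted differences of the members in adipose tissue were small and more often positive. The log2 fold change of 5-HTP over CON (logFC) was above 0 for 94 of 148 members (63.5%), against 50.6% of all loci, with a median of 0.14 against 0.00. It ranged from -0.65 to 1.08. The count of positive members was 107 without calf 2, the library that stood apart, and 79 without calf 8. Members share libraries and vary together, so this count has no test.

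In muscle, 128 members had enough counts to be tested and 20 did not. No member was called by edgeR's likelihood ratio test at an adjusted p of 0.20, nor by the quasi-likelihood test or DESeq2, where 0.218% of 15624 loci were called by the likelihood ratio test. The lowest adjusted p of a member was 0.370 (edgeR likelihood ratio test). Without calf 4 there were 2 members called, where 1.17% of loci were. Without calf 2, 3 or 6 there was 1, where 0.216, 0.419 and 0.93% of loci were called. At unadjusted P ≤ 0.01 there were 4 members (3.13%, against 1.56% of loci) and without calf 1 there was 1 (against 1.42%). At unadjusted P ≤ 0.05 there were 10 (7.81%, against 4.92% of loci), all of them lower with 5-HTP, where 3.29% of loci were lower at that P. Without calf 1 there were 6 (against 5.29% of loci). The groups did not overlap for 5 members, 2 higher and 3 lower, against 2.59% of loci.

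The logFC in muscle was below 0 for 89 of 128 members and above 0 for 39 (30.5%, against 49.2% of all loci), with a median of -0.11 against -0.01 and a range from -2.65 to 0.49. Without calf 1, whose muscle library stood apart, 45 members were above 0 and the median was -0.09. The adipocyte product CFD was also lower in the muscle of 5-HTP calves, at 2.07 ± 0.709 against 5.29 ± 1.61 CPM (SD, n = 4), and in their adipose tissue, at 25.3 ± 11.8 against 51.6 ± 19.4 CPM. IGFN1 and TTN were lower in the muscle of 5-HTP calves too, IGFN1 at 1355 ± 348 against 2881 ± 913 CPM and TTN at 19.9 ± 4.69 against 48.4 ± 17.3 CPM. Some other features with a symbol and a higher mean in muscle than in adipose tissue went the other way, among them WDR86 and LMX1B. The WDR86 locus with an Ensembl identifier was at 14.9, 25.6, 22.5 and 15.4 CPM in CON muscle and 63.5, 23.2, 36.5 and 48.3 CPM with 5-HTP. Features with a higher mean in adipose tissue than in muscle also differed among themselves. In muscle, C1QB was at 16.4, 11.1, 5.38 and 6.23 CPM with CON. With 5-HTP it was at 2.35, 5.21, 2.37 and 3.94 CPM. COLQ was at 4.44, 1.44, 3.62 and 5.27 CPM in CON muscle. With 5-HTP COLQ was at 6.18, 1.88, 4.43 and 2.72 CPM, and the groups overlapped. These features have symbols because the study's supplement lists them, from these same samples, so their direction is not independent evidence. The part of adipocyte content in the lean of the muscle values was not tested, since 1 of the 19 adipocyte markers was paired with an identifier.

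**Figure D5:**
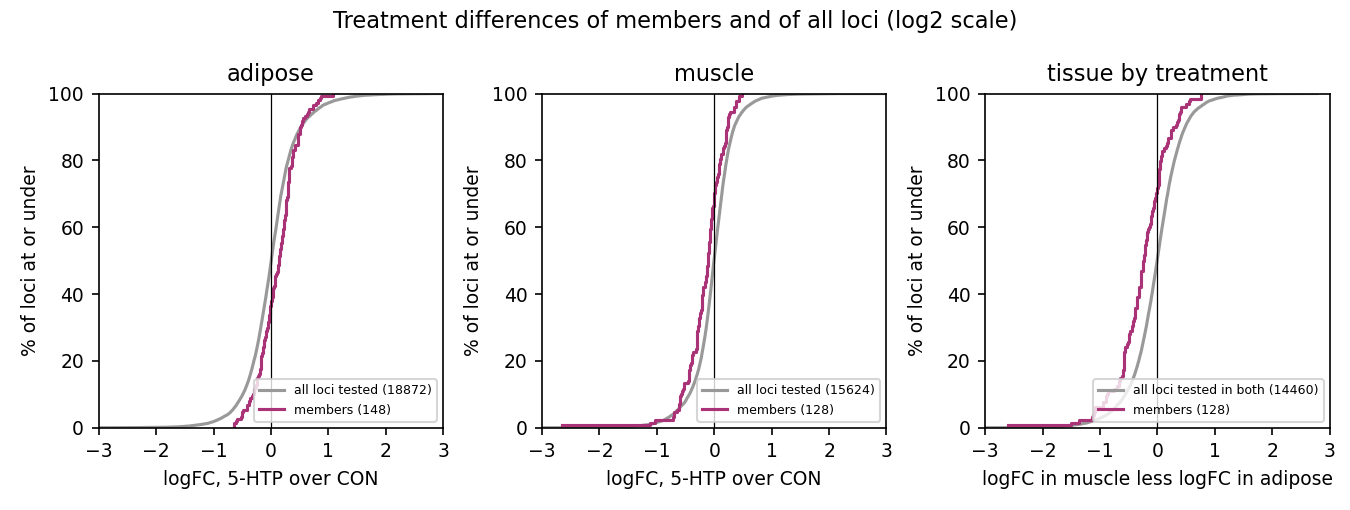
Cumulative percent of loci at or under each logFC for members (purple) and all loci tested (grey), for 5-HTP over CON in adipose tissue and in muscle and for the logFC in muscle less that in adipose tissue over loci tested in both; values beyond -3 and 3 lie outside the axes. The member curve lies right of the grey curve in adipose tissue over most of its range (median 0.14 against 0.00) and left of it in muscle (median -0.11 against -0.01) and for the difference (median -0.24 against -0.01).

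ENSBTAG00000007439, at adipose rank 133, had the smallest P of any member in adipose tissue. Its TMM-normalized adipose levels were 76.1, 79.9, 122.8 and 76.3 CPM in CON calves and 164.7, 194.7, 151.1 and 130.8 CPM in 5-HTP calves. All 5-HTP calves were above all CON calves, with CON calf 3 nearest to them. The logFC was 0.85 with an SE of 0.24 and an adjusted p of 0.279 (edgeR likelihood ratio test), and the exact two-sided permutation test gave p = 0.0286, the smallest that 4 against 4 calves allows. The locus was picked for its P in these same libraries, so the permutation p is no separate support. Without calf 3 the adjusted p was 0.0405 by the same edgeR test, and without each of the other 7 calves it was 0.396 to 0.811.

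The muscle levels of ENSBTAG00000007439 went the other way, at 7.38, 7.04, 4.67 and 6.70 CPM in CON and 4.59, 4.80, 3.36 and 3.74 CPM in 5-HTP calves. The groups overlapped at CON calf 3 and 5-HTP calf 6, with a logFC of -0.64 and an exact permutation p of 0.0571. The difference between the tissues was -1.50 on the log2 scale (SE 0.33), with an adjusted p of 0.0115 by edgeR's likelihood ratio test, 0.0543 with calf as a block and 0.765 by the quasi-likelihood test. It stayed below 0 whichever calf was left out.

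ENSBTAG00000001246, at adipose rank 20, had the second smallest adipose P. It gave 740, 781, 936 and 696 CPM in CON adipose tissue and 1116, 913, 1226 and 1355 CPM with 5-HTP, where calf 6 lay under CON calf 3. Its logFC was 0.55 in adipose tissue (exact permutation p = 0.0571). In muscle it gave 31.0, 24.3, 17.0 and 18.0 CPM with CON and 15.8, 18.7, 10.0 and 18.1 CPM with 5-HTP. The muscle logFC was -0.52 (exact permutation p = 0.171), and the difference of -1.09 between tissues had an adjusted p of 0.472 by edgeR's likelihood ratio test and 0.151 without calf 3.

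ENSBTAG00000016177, at adipose rank 63, was the member lower in adipose tissue at unadjusted P ≤ 0.05. Its adipose levels were 423, 528, 286 and 682 CPM with CON and 302, 309, 261 and 354 CPM with 5-HTP, with CON calf 3 inside the 5-HTP range (logFC -0.65, exact permutation p = 0.114). Its muscle levels were 4.90, 6.72, 4.01 and 5.05 CPM with CON and 3.53, 3.86, 3.21 and 3.02 CPM with 5-HTP, without overlap (logFC -0.60, exact permutation p = 0.0286). It had negative values in both tissues, and the adjusted p of 0.868 in muscle (edgeR likelihood ratio test) did not pass.

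ENSBTAG00000009599, at adipose rank 22, had the smallest P of the members in muscle, and a single library made most of it. Its muscle levels were 12.3, 0.475, 2.27 and 1.11 CPM with CON and 0.882, 0.282, 0.815 and 0.559 CPM with 5-HTP. Calf 1 stood far above the rest, and CON calf 2 lay under 3 of the 5-HTP calves. The logFC was -2.65 (adjusted p = 0.370, edgeR likelihood ratio test) and -0.999 without calf 1, and the exact permutation test gave p = 0.143. The adjusted p passed without calf 2 (0.0274) and without calf 4 (0.0606) by the same edgeR test. In adipose tissue the same locus had 259, 721, 1009 and 1753 CPM with CON and 747, 14.2, 1232 and 1498 CPM with 5-HTP, so it was also one of the uneven members there.

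The difference of the treatment effect between the tissues was then tested in 1 fit over the 16 libraries. Of the 128 members with enough counts in both tissues, 1 (0.781%) had an adjusted p at or under 0.20 by edgeR's likelihood ratio test, against 0.0346% of the 14460 loci tested in both. This was ENSBTAG00000007439, and edgeR's quasi-likelihood test called 0. At unadjusted P ≤ 0.01 there were 3 of these members (2.34%, against 0.698% of loci). At unadjusted P ≤ 0.05 there were 11 (8.59%, against 3.26%), all with the lower logFC in muscle, where 1.91% of loci were in that direction. The logFC was lower in muscle for 92 of the 128 (71.9%, against 50.7% of loci), with a median difference of -0.24 against -0.01. Members share libraries, so these shares have no test. The shares over the 128 were not recomputed without calf 1 or calf 2.

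The other 20 members entered this fit through their adipose counts alone, which the rule had made high, and nothing is read from shares that include them. With them, 3 of 148 members had an adjusted p at or under 0.20 by edgeR's likelihood ratio test (0.0925% of 20534 loci did), 8 had an unadjusted P ≤ 0.01 (1.32% of loci) and 21 an unadjusted P ≤ 0.05 (4.98% of loci, and 2.97% with the lower logFC in muscle). Of these, 2, 5 and 10 were among the 20. The quasi-likelihood test called 0 of the 148, and with calf as a block 2 were called. Without calf 3 there were 7, where 0.21% of loci were called. At unadjusted P ≤ 0.05 there were 16 without calf 1 (against 7.54% of loci) and 21 without calf 2 (against 4.53%). The median difference over the 148 was -0.29, against -0.02 over all loci. Without calf 1 these medians were -0.20 and -0.05.

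The members at adipose ranks 60 and 139 were the 2 called among those 20. Rank 60 had 4, 5, 14 and 6 muscle counts in CON calves and 0, 1, 0 and 0 in 5-HTP calves. The summed counts of 29 and 1 gave a CON to 5-HTP CPM ratio of 26.4, with a 95% exact counting interval from 4.37 to 1077. That interval covers counting error only and not the spread between calves. The exact permutation test over calves gave p = 0.0286. Rank 60 was picked by a fit to these same counts, so this p is no separate support. In adipose tissue rank 60 was at 344, 166, 418 and 498 CPM with CON and 292, 523, 413 and 610 CPM with 5-HTP, and the groups overlapped. The fitted difference of -4.72 (adjusted p = 0.00495, edgeR likelihood ratio test) depends on how zeros are treated in the fit and is no measure of size.

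Rank 139 had 5, 14, 2 and 1 muscle counts in CON calves and 0, 2, 0 and 0 in 5-HTP calves. The sums of 22 and 2 gave a ratio of 10.0 with an interval from 2.46 to 87.8, and CON calves 3 and 4 lay below 5-HTP calf 6 in TMM-normalized CPM (exact permutation p = 0.0857). Its fitted difference had an adjusted p of 0.0491 by edgeR's likelihood ratio test, 0.278 with calf as a block and 0.273 to 0.899 without calf 2, 5, 7 or 8. The interval of rank 139 also covers counting error only, and its permutation p comes from the counts by which it was picked. Both members rested on at most 14 counts in any muscle library.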

How the data were processed

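Poly-A RNA of 8 adipose and 8 muscle samples was sequenced. The authors deposited whole-number HTSeq read counts per merged locus, made with FastQC 0.11.7, Trim Galore 0.4.4, HISAT2 on ARS-UCD1.2 and Cufflinks 2.2.1 (the submitters' processing notes). Each table had 44265 rows. The first row of each of 42862 loci was kept, since 1166 loci, 11 members among them, were listed under more than 1 identifier. CPM was counts per 1000000 kept counts. Levels in CPM are not corrected for transcript length.

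Treatment was tested in each tissue with edgeR 4.0.16 (R 4.3.3): TMM, the likelihood ratio test of the study's methods, a minimum of 10 counts in no fewer than 4 libraries, Benjamini-Hochberg adjustment over all loci and a threshold of 0.20. The quasi-likelihood test and DESeq2 1.42.0 were alternatives. Single members were tested with a two-sided exact permutation test over the 70 arrangements of calves on log2(TMM CPM + 0.001). They were picked for a small P in the same libraries, so the permutation p-values are unadjusted and no separate support. The tests were tested on simulated data. Within a tissue, P-values measure the spread between calves, 1 library each. The tissue by treatment fit had no calf term, so it took the adipose and muscle libraries of a calf as independent. No 2 libraries of a group agreed within sampling noise (lowest chi-square per degree of freedom 23.5).

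Equal numbers in the 2 tissues were taken as the same calf. Over 12166 loci, deviations from group means correlated from -0.294 in calf 1 to 0.291 in calf 6, and over 0.1 in 5 of 8 calves. The fit without the calf block was the one reported.

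The members and lists were chosen with earlier results of these data known. Of 31 identifiers that the study's supplement pairs with symbols, 0 were members. Members were to be named by abundance, ratio, P and CV, with at most 2 identifiers higher and 2 lower with 5-HTP. Of 12 marker lists, adipocyte and muscle fibre had 1 paired gene each and the other 10 had 0, so these lists could not be run.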

Additional observations from a re-analysis of the deposited data

Results flagged for a closer look

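In groups of 4 calves, 6 values of 28 groups examined had 1 calf far from the other 3. Chance marks about 1 in 20 groups, but that rate does not hold for these groups, which belong mostly to members picked for a small P, and 2 of the 6 are single non-zero values beside zeros. ENSBTAG00000007439 was at 122.8 CPM in the adipose tissue of CON calf 3. ENSBTAG00000009599 was at 12.3 CPM in the muscle of CON calf 1. The member at adipose rank 60 was at 0.623 CPM in the muscle of CON calf 3. It was at 0.0471 CPM in the muscle of 5-HTP calf 6, which is 1 count where the other 3 calves had 0. The member at adipose rank 139 was at 0.0942 CPM in the same library, on 2 counts where the other 3 calves had 0. The members' share of muscle counts was 0.223% in 5-HTP calf 5, above the other 3 calves.

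For 3 members the tissue by treatment term passed an adjusted p of 0.20 by edgeR's likelihood ratio test, with a negative sign for muscle less adipose tissue. The fitted term was -1.50 for ENSBTAG00000007439, -4.72 for rank 60 and -3.46 for rank 139 on the log2 scale. None of the 3 passed by the quasi-likelihood test, and ranks 60 and 139 were in the fit through their adipose counts alone, so that their terms are not read as treatment differences in muscle.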

How the results depend on the processing

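Of 297 recomputed values, 251 were marked as the same. For the logFC of a single member this meant the same direction and side of the threshold. For counts of members it allowed a limited change, as from 148 to 207 at a level of 50 CPM and to 100 at 200 CPM. The number of members was 280 at a ratio of 8, 81 at 32, 63 with TMM-scaled CPM, and 143 to 157 without 1 calf, with 127 members present in all 8 sets. In adipose tissue 1 member passed unadjusted P ≤ 0.01 by either edgeR test, 8 passed unadjusted P ≤ 0.05, and 0 to 1 were called without 1 calf. In muscle 1 was called with no filter on low counts, 4 passed unadjusted P ≤ 0.01 by the likelihood ratio test and 3 by the quasi-likelihood test, 10 passed unadjusted P ≤ 0.05, and 0 to 2 were called without 1 calf. For the tissue by treatment term 0 were called by the quasi-likelihood test with or without the calf block, 2 with the calf as a replicate block, 8 and 21 at unadjusted P ≤ 0.01 and unadjusted P ≤ 0.05, 1 over loci tested in both tissues, and 2 to 7 without 1 calf. The counts at unadjusted P ≤ 0.05, at unadjusted P ≤ 0.01 by the quasi-likelihood test and over loci tested in both tissues and at either P for the tissue by treatment term were chosen after seeing the data. The difference between tissues for ENSBTAG00000016177 turned to -0.0046 with the block and -0.0060 with the block and the quasi-likelihood test, and ran from -0.20 to 0.16 without 1 calf. The adipose logFC of ENSBTAG00000009599 ran from -0.50 to 0.39 without 1 calf, and was 0.39 without calf 4 and 0.31 without calf 6. The cause of these changes was not tested. With all rows in the total, the members took 7.77% of adipose and 0.183% of muscle counts. Low muscle counts limit what can be said of the 23 members under 1 CPM there.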
